A study of Mus musculus with 12 samples.

Results

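Of the 25124 gene rows with TPM values in this RNA-seq study of mouse brown adipose tissue (BAT), 6 belong to the long noncoding RNAs Lncbate10, Gm15441, H19, Meg3, Neat1 and Malat1, each found by its gene symbol. Lncbate10 was selected on its measured fall in Txnip-/- mice at thermoneutrality, which was the largest after that of Txnip itself, so its differences at that temperature are given as a description. Gm15441 was taken because its exons overlap those of Txnip on the other DNA strand, and for the other 4 no measured value was stated as the reason. All members were nevertheless chosen with earlier results of these data known, so shares of members called are not those of an unselected set. The 6 rows are typed as ncRNA in the deposited table, as are 3761 rows in all. Interscapular BAT came from male mice of 10 weeks on a C57B/6J background. The 4 groups were WT mice kept for 1 week at room temperature (RT, 23 °C), Txnip-/- mice kept likewise at RT, WT mice kept for 1 week at thermoneutrality (TN, 30 °C) and Txnip-/- mice kept likewise at TN, with 3 libraries in each and 12 in all. The Txnip-/- mice are named as deficient with no tissue or promoter given, and the part of the gene that was deleted is not given in the sources used here. The methods speak of triplicates and do not say which mouse each library came from, so p-values measure the spread between these libraries, part of which may be technical.

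Long noncoding RNAs act as RNA, by binding proteins or by being transcribed over a neighbouring gene. Lncbate10 is a brown fat RNA that is switched on by cAMP signalling through Creb and that draws the RNA-binding protein Celf1 away from the mRNA of Ppargc1a, a coactivator of mitochondrial genes. Gm15441 is an antisense RNA of the Txnip locus that responds to Pparα in liver and has been tied to the Nlrp3 inflammasome, which Txnip can activate. Meg3 and H19 are expressed from the maternal chromosome of imprinted loci, and H19 is known in brown fat as a restraint on paternally expressed genes together with Mbd1. Neat1 is the scaffold of paraspeckles and Malat1 a component of nuclear speckles, and these abundant nuclear RNAs are neighbours on a single chromosome. Txnip is an α-arrestin that binds thioredoxin and limits glucose uptake.

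The stretch that Gm15441 shares with Txnip is shown first because reads from it cannot be told apart by strand, and promoters are shown because cAMP signalling is known to switch on brown fat genes. The whole of Gm15441 exon 2 lies opposite Txnip coding sequence in Txnip exon 5, at chr3:96559678-96559842 (GRCm38, the same assembly as mm10), and is printed here on the minus strand, 5′ to 3′ as Gm15441 reads it. The 250 bases before the Txnip start, chr3:96557707-96557956, lie inside Gm15441 exon 3 and are printed on the plus strand as the promoter of Txnip. The promoters of Meg3 (chr12:109540746-109541045, plus strand) and Malat1 (chr19:5802623-5802922, minus strand) run from 250 bases before to 50 bases after the start. The Gm15441 stretch was taken from the GENCODE M21 transcripts and the Txnip, Meg3 and Malat1 promoters from the RefSeq table of build GRCm38.p6. Capitals mark the full cAMP response element (CRE, TGACGTCA) in Meg3 and the core CRE motif TGACG, read on either strand, in Malat1.
Gm15441 exon 2: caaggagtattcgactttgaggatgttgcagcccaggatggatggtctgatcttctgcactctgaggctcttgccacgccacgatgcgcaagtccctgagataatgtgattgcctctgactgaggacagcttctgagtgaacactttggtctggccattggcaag
Txnip promoter: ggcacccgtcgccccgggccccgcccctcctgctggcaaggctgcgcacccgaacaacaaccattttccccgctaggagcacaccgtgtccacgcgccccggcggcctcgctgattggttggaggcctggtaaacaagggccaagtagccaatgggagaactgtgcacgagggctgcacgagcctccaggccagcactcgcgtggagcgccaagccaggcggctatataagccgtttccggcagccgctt
Meg3 promoter: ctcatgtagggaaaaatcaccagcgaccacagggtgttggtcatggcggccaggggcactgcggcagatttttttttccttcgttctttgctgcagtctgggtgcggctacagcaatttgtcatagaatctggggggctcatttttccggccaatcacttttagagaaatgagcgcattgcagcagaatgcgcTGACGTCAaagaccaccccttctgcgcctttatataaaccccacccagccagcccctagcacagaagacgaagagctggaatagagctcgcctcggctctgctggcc
Malat1 promoter: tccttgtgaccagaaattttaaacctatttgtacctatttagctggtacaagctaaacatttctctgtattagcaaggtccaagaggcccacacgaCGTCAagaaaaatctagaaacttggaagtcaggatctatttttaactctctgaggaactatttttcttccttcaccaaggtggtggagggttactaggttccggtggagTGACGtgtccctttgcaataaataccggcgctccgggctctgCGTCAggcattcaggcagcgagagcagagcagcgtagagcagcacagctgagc

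A search of both strands for TGACGTCA, TGACG, the E-box CACGTG and the nuclear receptor motif AGGTCA found 1 full CRE in the Meg3 promoter, at position -57 from the start, and the core motif inside it on each strand. The table holds a second Meg3 promoter, at chr12:109545148-109545447, with no CRE and 1 AGGTCA match at position -141, which is not printed. The full CRE was held by 588 of 32851 mouse promoters of this length, or 1.79%, and the core motif by 20.81%. The Malat1 promoter held 3 matches to the core motif and none to the other motifs, and the Txnip promoter, searched up to 50 bases after the start as well, held none of the 4, of which the E-box was found in 7.15% and AGGTCA in 16.26% of all promoters. These are matches of letters, not sites. No promoter was at hand for Lncbate10, Gm15441, H19 or Neat1.

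Each library had between 29.93 and 47.44 M reads (M stands for 1000000). Txnip had 564, 581 and 694 TPM in RT WT and 24.8, 26.9 and 35.4 TPM in RT Txnip-/-, and 1238, 1083 and 1072 TPM in TN WT against 11.0, 14.4 and 10.5 TPM in TN Txnip-/-, as the labels say. The tissue had the markers of brown fat. All 10 brown adipocyte markers had a mean of at least 1 TPM in every group except TN Txnip-/-, where 9 did, and Ucp1, the uncoupling protein of thermogenesis, averaged 3982 ± 333 TPM (SD, n = 3) in RT WT. Markers of other cells moved with the groups. The summed level of 10 macrophage markers was between 75.1 and 88.2 TPM in RT WT, 131 and 214 TPM in RT Txnip-/-, 167 and 306 TPM in TN WT, and 513 and 730.01 TPM in TN Txnip-/-. The summed level of 10 skeletal muscle markers was between 24.7 and 60.7 TPM in RT Txnip-/-, 5.85 and 6.53 TPM in RT WT, 7.45 and 24.0 TPM in TN WT, and 7.24 and 20.6 TPM in TN Txnip-/-. The first principal component, with 61.8% of the variance, parted RT from TN libraries.

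The members differed among themselves in level and in pattern. Neat1 was the most abundant, with a mean of 552 TPM over the 12 libraries, the third highest of the ncRNA rows, followed by Gm15441 with 221 TPM (rank 9) and Malat1 with 138 TPM (rank 11). Lncbate10 averaged 38.5 TPM (rank 34), Meg3 12.3 TPM (rank 133) and H19 0.969 TPM (rank 800). TPM are scaled for transcript length, but these ranks depend on the transcript kept for Neat1 and Meg3 and, for Gm15441, on reads shared with Txnip. Tests were made with limma on log2(TPM + 1) over all genes with a mean of at least 1 TPM, and a gene was called when its log2 fold change (log2FC, given with its standard error, SE) was above 0.32 or below -0.32 with a Benjamini-Hochberg adjusted p under 0.05.

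**Figure D1:**
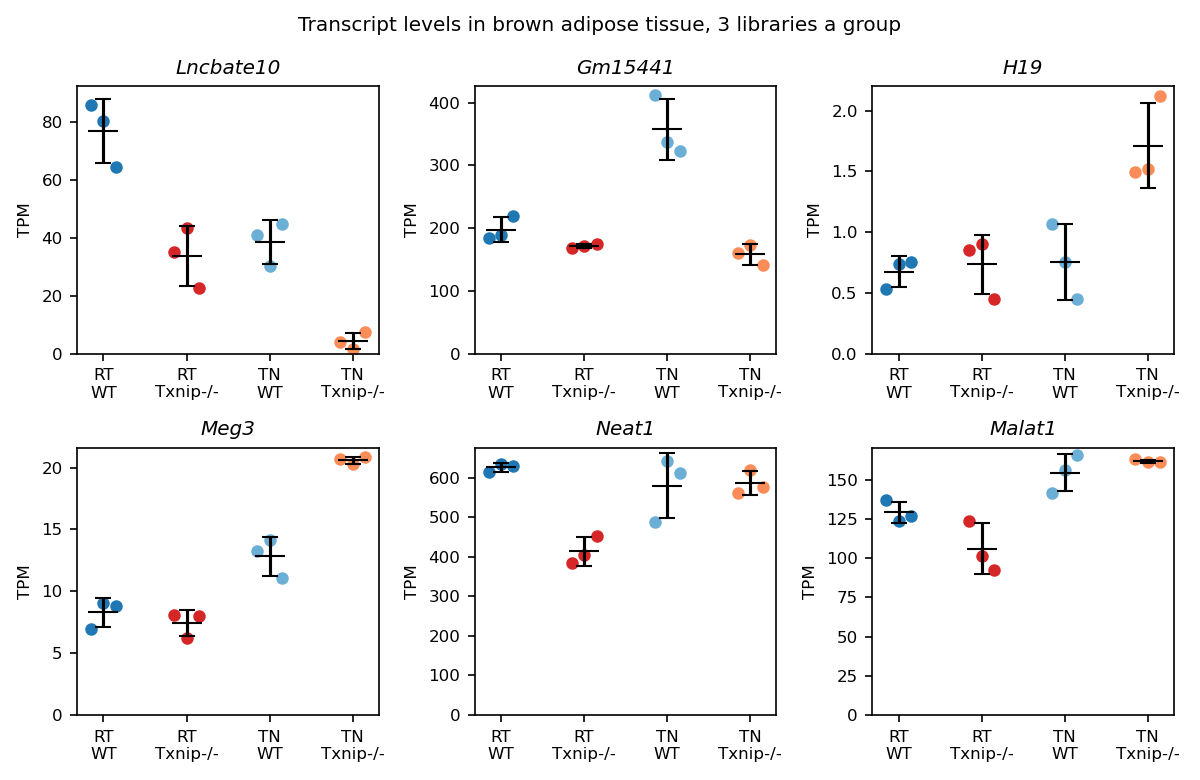
TPM (linear axis from 0) of the 6 members in each library, by group, with the mean (line) and SD (error bar) of 3 libraries. Lncbate10 lies between 1.73 and 7.44 TPM in TN Txnip-/-, below every other library, while Meg3 and H19 have their highest levels there.

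At RT, Neat1 was called, and it fell. This is 1 of the 5 members that were tested, beside 1.49% of all 11980 genes. The ranges of WT and Txnip-/- did not overlap for Lncbate10, Gm15441 and Neat1, each lower in Txnip-/-, as was the case in either direction for 22.6% of all genes. At TN, Gm15441 fell and Meg3 rose in Txnip-/-, which makes 2 of the 4 members left when Lncbate10 and H19 are set aside, beside 8.66% of 12891 genes called. These 2 did not overlap between the genotypes at TN, beside 31.1% of all genes. Lncbate10 and H19 did not overlap either, and nothing is read from this, since Lncbate10 was chosen on these values and H19 reached the level needed for a test only through Txnip-/-.

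Between temperatures, Gm15441 and Meg3 rose at TN in WT, 2 of the 4 tested members other than Lncbate10, where 37.8% of 12486 genes were called. In Txnip-/- it was Meg3, Neat1 and Malat1 that rose, 3 of these 4, where 39.2% were called. The groups did not overlap for Gm15441, Meg3 and Malat1 in WT, beside 57.5% of all genes, and for Meg3, Neat1 and Malat1 in Txnip-/-, beside 61.1%. Lncbate10 in both genotypes and the untested H19 in Txnip-/- did not overlap either. The median log2FC of all genes between TN and RT was 0.18 in WT and 0.15 in Txnip-/-, and the changes of members between temperatures are to be read relative to this shift. For the difference of the genotype effects between the temperatures, 0.00801% of the 12486 genes passed an adjusted p under 0.05, which is 1 gene, Txnip. No member passed that test in limma, and 4 members had an unadjusted p under 0.05, not counting Lncbate10, namely Gm15441, Meg3, Neat1 and Malat1, as did 1571 of all 12486 genes.

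**Figure D2:**
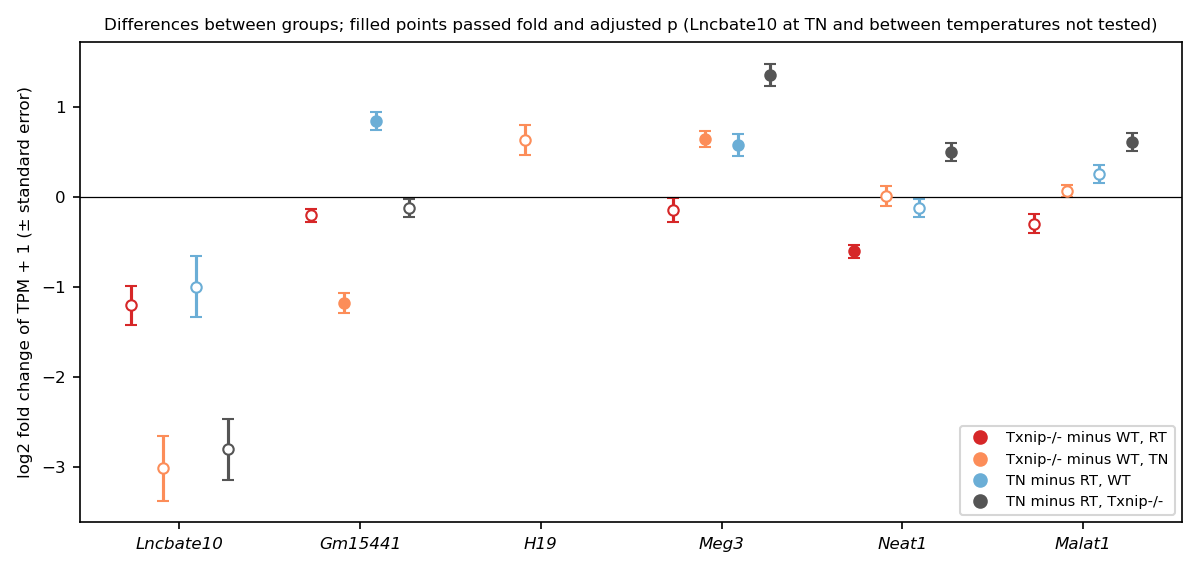
Log2FC of TPM + 1 with its SE for each member in 4 comparisons of 3 against 3 libraries. Filled points passed both the fold and the adjusted p, open points did not or are given with no test (Lncbate10 outside RT, H19), and H19 is shown only at TN, where its mean reached 1 TPM.

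Lncbate10 lies at chr18:61470225-61484607 (mm10, minus strand) and is a lincRNA of 4 exons in GENCODE M21. It had 86.0, 80.7 and 64.6 TPM in RT WT and 35.1, 43.6 and 22.8 TPM in RT Txnip-/-. The highest Txnip-/- library was therefore below the lowest WT library at RT. The WT mean was 77.1 ± 11.2 TPM (SD, n = 3) and that of Txnip-/- was 33.8 ± 10.5 TPM (SD, n = 3), which is 43.9% of WT. The log2FC at RT was -1.20 (SE 0.22), which did not pass the threshold (limma adjusted p = 0.0526). The RT comparison was not the one it was chosen on. When the deposited log-scale values replaced TPM it was -0.82 with an adjusted p of 0.0354.

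At TN, which is where Lncbate10 was chosen, it had 41.1, 30.2 and 44.7 TPM in WT and 3.96, 1.73 and 7.44 TPM in Txnip-/-. The means were 38.7 ± 7.53 and 4.38 ± 2.88 TPM (SD, n = 3), so that Txnip-/- held 11.3% of the WT level, a log2FC of -3.01 (SE 0.36). On the authors' log-scale values the difference was -2.0. Within a genotype, TN libraries held 50.2% of the RT mean in WT and 12.9% in Txnip-/-, with log2FCs of -0.99 (SE 0.34) and -2.80 (SE 0.34). The order of the group means was RT WT, TN WT, RT Txnip-/- and TN Txnip-/-. The ranges of TN WT and RT Txnip-/- overlapped, and those of the other neighbours in this order did not.

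Of the 10 brown adipocyte markers, 10 were lower in Txnip-/- at TN, and at RT 7 were lower and 3 higher, called or not. Ucp1 had between 3770 and 4366 TPM in RT WT, 2527 and 3900 TPM in RT Txnip-/-, 621 and 1136 TPM in TN WT, and 154 and 339 TPM in TN Txnip-/-. Its log2FC in Txnip-/- was -1.72 at TN (SE 0.31, limma adjusted p = 0.0151) and -0.42 at RT, where it was not called (limma adjusted p = 0.263). Without the second RT Txnip-/- library it was -0.61 at RT and passed. Of the 10 markers, 6 fell at TN and 2 at RT in Txnip-/-, with median log2FCs of -0.62 and -0.26, where the medians of all genes were 0.01 and 0.03. The 2 called at RT were Elovl3 (-1.52), a fatty acid elongase, and Cox7a1 (-0.40), a subunit of cytochrome c oxidase, and both calls were lost without any of 5 RT libraries (-1.69 to -1.29 and -0.43 to -0.36). Lncbate10 as a share of Ucp1 was between 1.71% and 2.12% in RT WT, 0.85% and 1.39% in RT Txnip-/-, 3.62% and 6.52% in TN WT, and 1.12% and 2.20% in TN Txnip-/-. At RT the share was lower in every Txnip-/- library than in every WT library. At TN nothing is read from the shares, since Lncbate10 was chosen for its fall there. The summed level of 8 markers of adipocytes in general was between 20988 and 21751 TPM in RT WT, and 20280 and 23104 TPM in RT Txnip-/-. At TN this sum was between 17504 and 19213 TPM in WT, and 17598 and 19385 TPM in Txnip-/-. In bulk tissue fewer brown adipocytes and less RNA per cell cannot be told apart.

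**Figure D3:**
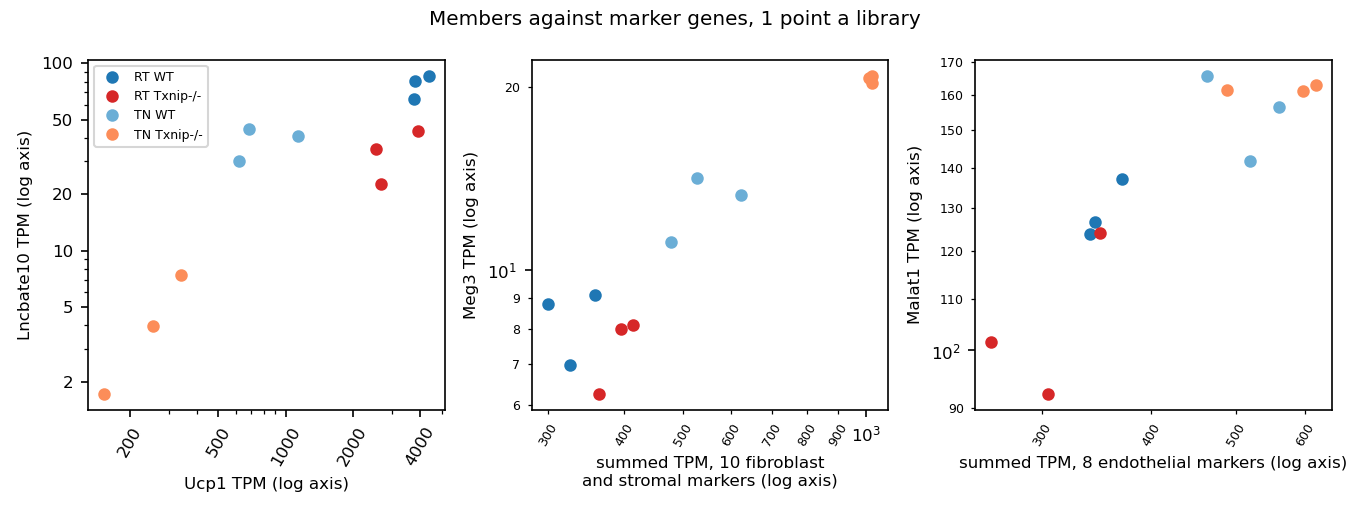
TPM of Lncbate10 against Ucp1 (left), Meg3 against the summed TPM of 10 fibroblast and stromal markers (middle) and Malat1 against that of 8 endothelial markers (right), all on log axes with 1 point for each of 12 libraries. TN Txnip-/- libraries are lowest for both Lncbate10 and Ucp1 and highest for both Meg3 and the stromal markers.

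None of the known partners of Lncbate10 was called between the genotypes by limma, and 1 of the 3, Ppargc1a at TN, had an unadjusted p under 0.05. Celf1, the RNA-binding protein it binds, averaged 28.4, 29.2, 30.0 and 31.4 TPM in the order RT WT, RT Txnip-/-, TN WT, TN Txnip-/-. Ppargc1a, whose mRNA Celf1 binds, had 18.3, 35.6 and 17.5 TPM in RT WT and 44.2, 37.2 and 15.6 TPM in RT Txnip-/-, ranges that overlapped widely. At TN it had 14.5, 9.30 and 12.8 TPM in WT and 6.22, 5.87 and 9.04 TPM in Txnip-/-, which did not overlap but missed the threshold (log2FC -0.72, limma adjusted p = 0.0514). The study's own test of these libraries named Ppargc1a among the genes lower in Txnip-/- at TN, and the study reported less of its protein there. Ppargc1a fell between RT and TN in Txnip-/- by 1.95 on the log2 scale (limma adjusted p = 0.000909). Creb1, the factor that answers to cAMP, rose at TN in WT by 0.40 (limma adjusted p = 0.00295), and after median centring of the libraries the rise was 0.22 and no longer called. Within 100 kb of Lncbate10 lie 4 rows, namely Arhgef37, with a mean of 0.523 TPM, Csnk1a1, with 62.4 TPM, Ppargc1b, a relative of Ppargc1a, with 30.2 TPM, and Mir378a, with 5.51 TPM. Of these the 3 that were tested were not called between the genotypes, and at TN the log2FC was -0.34 for Ppargc1b (limma adjusted p = 0.28) and -1.15 for Mir378a (limma adjusted p = 0.185).

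Gm15441 rose with Txnip between temperatures in WT mice, and no such rise was called without Txnip. It lies at chr3:96555768-96566801 (mm10, minus strand), is typed as antisense in GENCODE M21, and has 4 exons. It had 184, 188 and 220.0 TPM in RT WT and 169, 171 and 174 TPM in RT Txnip-/-. At TN it had 413, 337 and 323 TPM in WT and 160.3, 174 and 141 TPM in Txnip-/-. TN WT stood above all other groups, and the ranges of RT and TN Txnip-/- overlapped.

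The log2FC of Gm15441 in Txnip-/- was -1.17 at TN (SE 0.11, limma adjusted p = 0.00302), where Txnip-/- had 44.3% of the WT level. At RT it was -0.20 (SE 0.07, limma adjusted p = 0.25), with 86.8% of the WT level. In WT, Gm15441 rose from 197 ± 19.6 to 358 ± 48.4 TPM (SD, n = 3) between RT and TN, a log2FC of 0.85 (SE 0.10, limma adjusted p = 0.000152), or 0.67 after median centring. In Txnip-/- the same comparison gave -0.12 (SE 0.10, limma adjusted p = 0.353). The difference of the genotype effects was -0.97 (SE 0.15, limma adjusted p = 0.0776), which did not pass. Txnip itself rose in WT between RT and TN by a log2FC of 0.89 (limma adjusted p = 0.000565).

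The ratio of Gm15441 to Txnip was nearly constant in WT. It was between 0.317 and 0.326 in the RT WT libraries and between 0.302 and 0.334 in the TN WT libraries, and it was between 4.92 and 6.80 in RT Txnip-/- and between 12.05 and 14.6 in TN Txnip-/-. The drop of Gm15441 in Txnip-/- was 26.1 TPM at RT, or 4.47% of the 584 TPM that Txnip lost, and 199 TPM at TN, or 17.8% of the 1120.0 TPM lost. Between RT and TN in WT, Txnip gained 518 TPM and Gm15441 160.0 TPM, or 30.9% of it. The overlap bears on these values. Of the 1653 exon bases of Gm15441, 606 or 36.7% also lie in exons of a Txnip transcript on the opposite strand, among them the 165 bases of exon 2 printed above and 438 bases between Gm15441 exon 3 and Txnip exon 1, of which 162 are coding. The library kit is named without a directional option and the counting command names no strand, so reads from the shared stretches cannot be told apart by strand. How much of the Gm15441 level in WT comes from Txnip reads was not tested. In Txnip-/- libraries, with Txnip at 10.5 to 35.4 TPM, Gm15441 was still at 141 to 174 TPM.

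**Figure D4:**
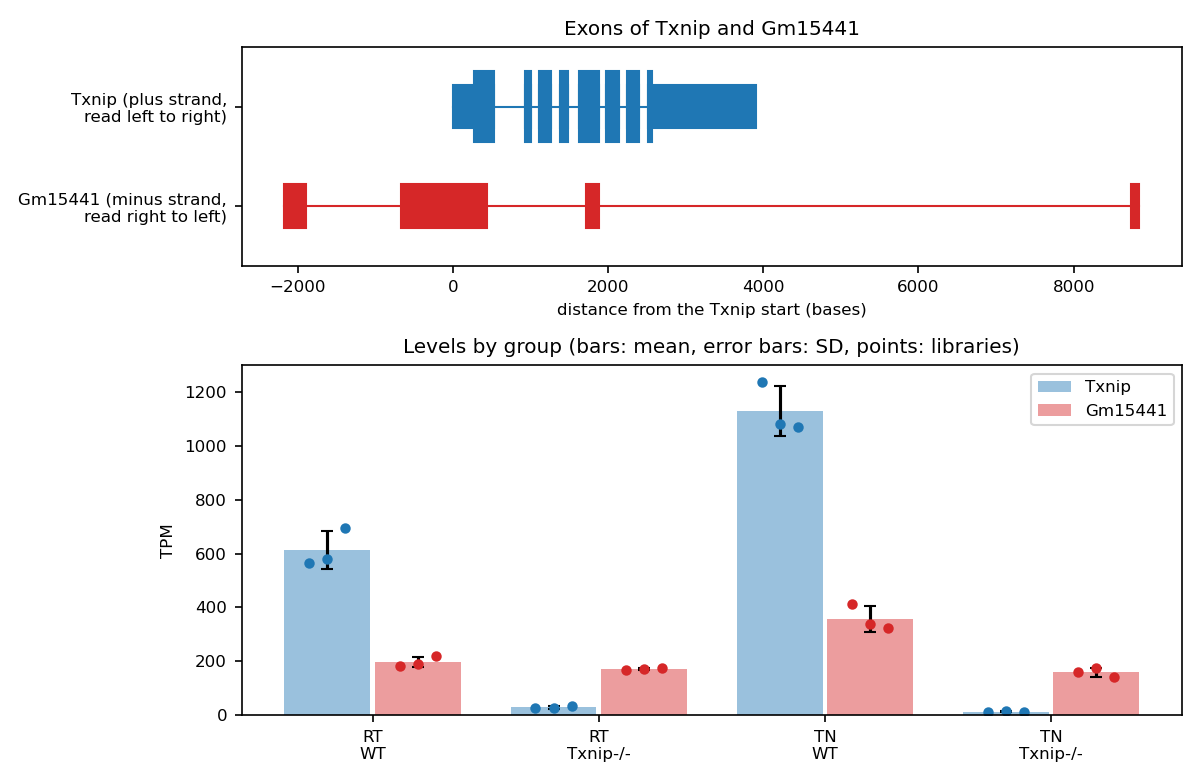
Top: exons of Txnip and Gm15441 by distance in bases from the Txnip start, with coding sequence drawn taller. Bottom: TPM by group (bars, mean; error bars, SD; points, 3 libraries), in which Gm15441 is at 0.302 to 0.334 of Txnip in the WT libraries and between 141 and 174 TPM in Txnip-/-.

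Genes tied to Gm15441 by function moved in their own ways. Nlrp3, the sensor of the inflammasome, was low everywhere, with at most 0.468 TPM in any library. Of the 10 inflammasome genes, 3 of the 7 tested rose in Txnip-/- at TN, namely Casp4 (log2FC 1.01), Casp1 (0.72), both inflammatory caspases, and Gsdmd (0.50), the pore protein they cleave, with limma adjusted p between 0.00794 and 0.03. This is 42.9% of the tested genes of the list, beside 8.66% of all genes. The median of the 7 was 0.51, where that of all genes was 0.01. The call of Casp4 was lost without any 1 of the 3 TN Txnip-/- libraries (log2FCs of 0.95 to 1.04) and that of Gsdmd without any of 5 TN libraries (0.39 to 0.54). On the authors' log-scale values Casp1 had 0.31 and Gsdmd 0.30, under the fold threshold. Macrophage markers, given above, rose in the same libraries (10 of 10 called at TN), and their part in this was not tested. Of 13 tested Pparα targets, Cpt1b and Plin5, which serve fatty acid transport and lipid droplets, fell at TN in Txnip-/- by 0.65 and 0.56, with a median of 0.05 over the list. The calls of Cpt1b and Plin5 were lost when any of several TN libraries was left out, the first TN WT library among them (log2FCs of -0.55 and -0.51). Between RT and TN in WT, 9 of these 13 targets fell and Angptl4 rose (1.23), 76.9% of the list beside 37.8% of all genes, with a median of -0.57, while Gm15441 rose. Arrdc4, an α-arrestin like Txnip that responds to glucose, rose in Txnip-/- at TN from 5.39 ± 0.950 to 13.6 ± 1.38 TPM (SD, n = 3), with a log2FC of 1.20 (limma adjusted p = 0.00314). It was 1 of 2 of the 8 tested genes of the glucose-sensing list to be called at TN, 25.0% beside 8.66% of all genes. The other was Mlxipl, the glucose-sensing transcription factor ChREBP (0.71), whose call was lost without any of 5 TN libraries (0.60 to 0.72).

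Meg3 rose between RT and TN in both genotypes, and at TN it was higher in Txnip-/- than in WT. It lies at chr12:109540996-109571729 (mm10, plus strand), a lincRNA in the imprinted Dlk1-Dio3 region, and its start is the one shown above with the CRE. Of its 1896 exon bases, 331 also lie in Gm26906 on the other strand, and reads from these cannot be told apart. It had 6.99, 9.09 and 8.80 TPM in RT WT, 8.11, 6.26 and 7.99 TPM in RT Txnip-/-, 13.3, 14.1 and 11.1 TPM in TN WT, and 20.7, 20.3 and 20.85 TPM in TN Txnip-/-. The 2 RT groups overlapped, and each TN group stood apart from the others. At RT the log2FC in Txnip-/- was -0.14 (limma adjusted p = 0.667). At TN Meg3 went from 12.8 ± 1.57 to 20.6 ± 0.281 TPM (SD, n = 3), a log2FC of 0.65 (SE 0.09, limma adjusted p = 0.00795). On the authors' log-scale values, which use a transcript of 11467 bases instead of 1903, the difference was 0.30, below the fold threshold, with an adjusted p of 0.00889.

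Between RT and TN, Meg3 rose by 0.58 in WT (SE 0.12, limma adjusted p = 0.00212) and by 1.36 in Txnip-/- (SE 0.12, limma adjusted p = 1.25e-05), or by 0.39 and 1.17 after median centring. The difference of the genotype effects was 0.79 (SE 0.17), which did not pass (limma adjusted p = 0.125). Rian, the next maternally expressed RNA of the region, had 5.36, 5.28 and 4.81 TPM in TN WT and 6.96, 6.40 and 7.34 TPM in TN Txnip-/-. It was higher by 0.36 (limma adjusted p = 0.0355), a call lost without any 1 of the 6 TN libraries (log2FCs of 0.32 to 0.41), and it rose between RT and TN by 0.60 in WT and 0.97 in Txnip-/- (limma adjusted p = 0.000279 and 1.29e-05). Dlk1, the paternally expressed inhibitor of adipocyte differentiation in the same region, was near 1 TPM and rose between RT and TN in Txnip-/- (0.63, limma adjusted p = 0.0107, and 0.44 and not called after median centring). In WT it had 0.18 (limma adjusted p = 0.417). Mirg averaged 1.11 TPM at most, and Rtl1 0.062 TPM over the 12 libraries.

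Stromal markers rose in the same libraries as Meg3. The summed level of 10 fibroblast and stromal markers was between 299.75 and 359 TPM in RT WT, 364 and 414 TPM in RT Txnip-/-, 478 and 624 TPM in TN WT, and 1014 and 1024 TPM in TN Txnip-/-. Of these markers 9 rose in Txnip-/- at TN, beside 8.66% of all genes called, with a median log2FC of 0.64. At RT the median of these markers was 0.20 where Meg3 had -0.14, and limma called none of them, with 4 at an unadjusted p under 0.05. Their part in the change of Meg3 was not tested. The genes whose log2(TPM + 1) was most alike to that of Meg3 over the 12 libraries, of 8902 genes with a mean of at least 5 TPM, were Cpe (Pearson's r = 0.984), Lamb2 (0.98) and Col5a3 (0.974). The 12 points share 4 groups, so these values describe a common pattern over groups.

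H19 was low in all groups and highest in TN Txnip-/-. It lies at chr7:142575530-142578146 (mm10, minus strand), a lincRNA of 5 exons that also holds Mir675. It had 0.529, 0.739 and 0.757 TPM in RT WT, 0.849, 0.902 and 0.452 TPM in RT Txnip-/-, 1.07, 0.751 and 0.446 TPM in TN WT, and 1.498, 1.52 and 2.12 TPM in TN Txnip-/-. All TN Txnip-/- libraries were above all others, and the other 3 groups overlapped. H19 reached the mean of 1 TPM needed for the test only at TN, and it did so through the Txnip-/- group. Its log2FC of 0.64 there (SE 0.17) is therefore given with no test. Adding 1 to TPM makes this smaller than the ratio of the means, which was 2.27.

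The other genes of the H19 locus and the imprinted network gave no single direction. Igf2, which shares control elements with H19, had 6.66, 6.08 and 7.54 TPM in RT WT and 4.58, 5.02 and 4.73 TPM in RT Txnip-/-, which did not overlap but missed the threshold (log2FC -0.42, limma adjusted p = 0.0879). Of 11 tested genes of the list, Mest and Dcn rose in Txnip-/- at TN, which is 18.2% beside 8.66% of all genes. Mest, a paternally expressed gene linked to adipocyte size, went from 4.42 ± 0.574 to 7.60 ± 0.525 TPM (SD, n = 3; log2FC 0.67, limma adjusted p = 0.00961). Dcn, a matrix proteoglycan that is also among the stromal markers, had 0.45 (limma adjusted p = 0.0254), lost without 5 of the 6 TN libraries (0.38 to 0.49). The median of the list was 0.14 at TN and -0.02 at RT, where 1 gene had an unadjusted p under 0.05 and none was called. Between RT and TN in WT, 4 rose and 3 fell, 63.6% of the list beside 37.8% of all genes, with Peg3, a paternally expressed zinc finger gene, down by 1.01 and Mest up by 0.70. In Txnip-/- the same comparison had 6 that rose and 3 that fell, 81.8% of the list beside 39.2% of all genes. Mbd1, the methyl-CpG binding partner of H19, fell by 0.44 in WT (limma adjusted p = 0.0172, and -0.27 and not called without the third RT WT library) and by 0.40 in Txnip-/- (limma adjusted p = 0.0252, lost without any of 4 Txnip-/- libraries, with -0.35 and -0.38).

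Neat1 was the member called between genotypes at RT, and it was lower in Txnip-/-. The row used here is the short form at chr19:5842296-5845480 (mm10, minus strand). It had 614, 636 and 630.4 TPM in RT WT and 384, 403 and 454 TPM in RT Txnip-/-, 66.0% of the WT mean. The groups did not overlap, with spreads of 11.3 TPM in WT and 35.8 TPM in Txnip-/- (SD, n = 3). The log2FC was -0.60 (SE 0.07, limma adjusted p = 0.0202). Without the first RT WT library the adjusted p was 0.0634 and without the second it was 0.105, with log2FCs of -0.62 and -0.59. On the authors' log-scale values, which use the long form of 20768 bases, RT WT libraries had 15.22, 15.24 and 15.28 and RT Txnip-/- libraries 14.72, 14.82 and 14.88.

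At TN, Neat1 had 487, 642 and 612 TPM in WT and 561, 620.0 and 577 TPM in Txnip-/-, which overlapped, with a log2FC of 0.02 (SE 0.11, limma adjusted p = 0.92) that was -0.10 without the first TN WT library. In Txnip-/- it rose between RT and TN by 0.50 (SE 0.10, limma adjusted p = 0.00125), or 0.31 after median centring, which is under the fold threshold. In WT the log2FC was -0.12 (limma adjusted p = 0.314). RT Txnip-/- was thus the group that stood below the other 3, whose ranges overlapped. The difference of the genotype effects was 0.62 (SE 0.14) and did not pass (limma adjusted p = 0.141). The muscle markers that were higher in RT Txnip-/- are given above, and their part was not tested.

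No paraspeckle protein was called together with Neat1. None of the 12 listed passed at RT or TN between the genotypes by limma, and none had an unadjusted p under 0.05 in either. Nono, which Neat1 binds, had 36.1, 36.5 and 34.9 TPM in RT WT and 37.7, 35.7 and 41.2 TPM in RT Txnip-/-. Sfpq, its partner, fell between RT and TN in both genotypes, by 0.60 in WT and 0.55 in Txnip-/- (limma adjusted p = 0.00415 and 0.00626).

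Malat1 rose at TN in Txnip-/- mice. It lies at chr19:5795690-5802672 (mm10, minus strand), a single-exon RNA whose promoter is shown above. It had 137, 124 and 127 TPM in RT WT, 124, 102 and 92.4 TPM in RT Txnip-/-, 142, 156 and 166 TPM in TN WT, and 163, 161 and 162 TPM in TN Txnip-/-. Both RT groups lay below both TN groups. The log2FC between RT and TN in Txnip-/- was 0.62 (SE 0.10, limma adjusted p = 0.000314), or 0.43 after median centring. In WT it was 0.26 (SE 0.10, limma adjusted p = 0.0422), under the fold threshold, and 0.07 after median centring. Between genotypes it was -0.29 at RT (limma adjusted p = 0.243) and 0.07 at TN (limma adjusted p = 0.615), and the difference of these effects was 0.36 (limma adjusted p = 0.319).

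Among the genes most alike to Malat1 were some of endothelial cells. Bcl6b, an endothelial repressor (Pearson's r = 0.97), Tmem88 (0.96) and Actg1 (0.94) were the most alike over 12 libraries. The summed level of 8 endothelial markers was between 341 and 370.4 TPM in RT WT, 263 and 349 TPM in RT Txnip-/-, 463 and 559 TPM in TN WT, and 488 and 617 TPM in TN Txnip-/-, and its part in the change of Malat1 was not tested. Among 11 nuclear speckle proteins, the splicing factors Srsf5 and Srrm1 rose between RT and TN in both genotypes, by 0.78 and 0.66 in WT and by 0.75 and 0.74 in Txnip-/- (limma adjusted p of at most 0.00166), with 4 called in WT and 2 in Txnip-/-, which is 36.4% and 18.2% beside 37.8% and 39.2% of all genes. None of the 11 was called between genotypes at either temperature by limma, and none had an unadjusted p under 0.05. The ratio of Neat1 to Malat1, which lie within a short distance of each other, was between 4.48 and 5.13 in RT WT, 3.10 and 4.91 in RT Txnip-/-, 3.44 and 4.10 in TN WT, and 3.44 and 3.85 in TN Txnip-/-.

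Noncoding rows as a whole were called between genotypes in small shares, as were all genes. At RT, 1 of 719 tested ncRNA rows rose and 6 fell in Txnip-/-, 0.974% in all beside 1.49% of all genes, and at TN 28 of 854 rose and 20 fell, 5.62% in all beside 8.66% of all genes, counting Lncbate10. Rows named for microRNAs are among them, and poly-A reads may reach such rows from longer transcripts. Mir1906-1, for example, shares 80 bases with Meg3 exons on the same strand. How much such reads add was not tested. By log2FC at TN, Gm15441 was the sixth lowest of the 854 and Meg3 stood at place 34 from the highest, while the first place of Lncbate10 from the lowest follows from how it was chosen. Of called ncRNA rows with a mean of at least 5 TPM over the 12 libraries, the largest rise in Txnip-/- was that of Gm35986 at both temperatures. It had 5.29, 5.98 and 13.0 TPM in RT WT and 31.3, 22.5 and 29.8 TPM in RT Txnip-/- (log2FC 1.75, limma adjusted p = 0.0436), and 4.27, 10.2 and 3.21 TPM in TN WT and 25.3, 18.2 and 26.2 TPM in TN Txnip-/- (1.93, limma adjusted p = 0.0132). Its RT call was lost without any of 5 RT libraries (1.53 to 1.89), and its TN call without the first TN Txnip-/- library (1.86). Among these called rows it was followed at TN by Mir5107 (1.5), 2610016A17Rik (1.43), Gm16143 (1.17) and Peg3os (0.66, lost without the first TN Txnip-/- library at 0.65). After Lncbate10 and Gm15441, the largest falls among them were those of AW011738 (-0.99), Gm44502 (-0.60) and E330011O21Rik (-0.53). The calls of Gm44502 and E330011O21Rik were lost without any of 5 TN libraries, at -0.65 to -0.49 and -0.58 to -0.40.

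**Figure D5:**
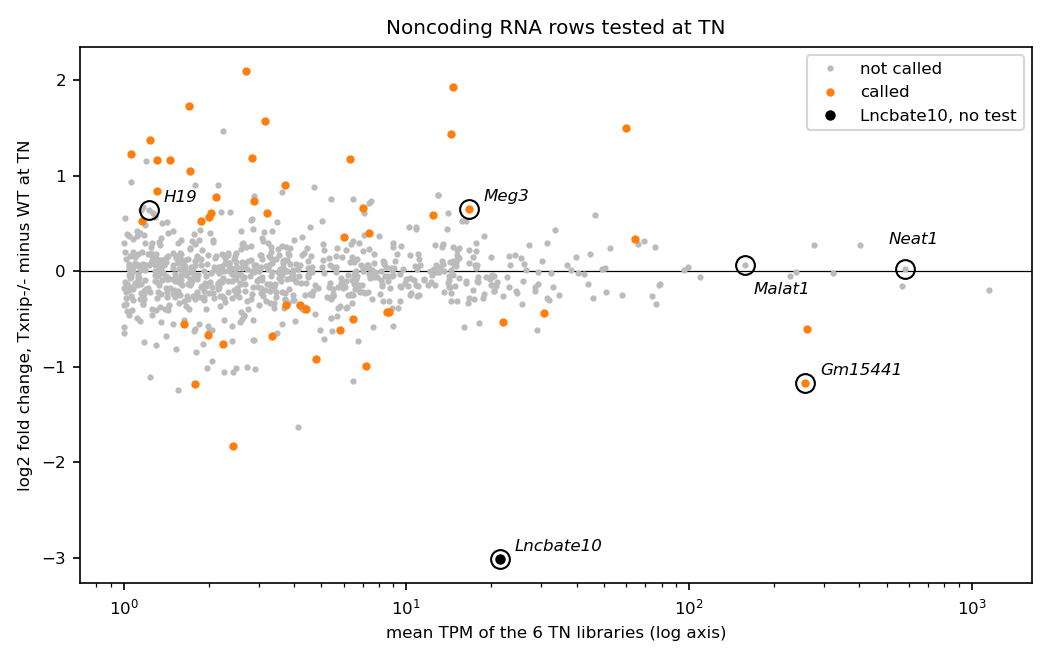
Log2FC of Txnip-/- over WT at TN against mean TPM (log axis) for the 854 ncRNA rows tested, with the 6 members circled. Most rows lie close to 0, Lncbate10, chosen for its fall here, is the lowest at -3.01, and Gm15441 at -1.17 is the next lowest of those with a mean of at least 5 TPM.

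Other long noncoding RNAs known by name were called between temperatures at about the rate of all genes. Of 31 tested RNAs in a list of such names, 12 rose between RT and TN in WT and 11 in Txnip-/-, which is 38.7% and 35.5% beside 37.8% and 39.2% of all genes, and of all genes called 83.1% and 78.9% were higher at TN. The largest rises were those of Snhg11, a small nucleolar RNA host gene, with 1.20 in WT and 1.53 in Txnip-/- (limma adjusted p = 0.000159 and 2.2e-05), and Airn, the antisense RNA of the imprinted Igf2r locus, with 1.16 and 1.38 (limma adjusted p = 0.00391 and 0.00122). The median of the list was 0.20 in WT, where that of all genes was 0.18. Between genotypes, Rpph1, the RNA of RNase P, fell at RT (-1.17, limma adjusted p = 0.0472, lost without any 1 of the 6 RT libraries, at -1.38 to -0.98), and Morrbid and Rian rose at TN. Morrbid, a regulator of myeloid cell survival, had 0.53 (limma adjusted p = 0.0427), which was lost without any 1 of the 6 TN libraries (0.44 to 0.61). On the authors' log-scale values Rpph1 had -0.14 and Morrbid 0.06, neither of them called.

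The genes most alike to the remaining members over the 12 libraries are given as a description of shared group patterns. For Lncbate10 they were Etfrf1 (Pearson's r = 0.978), Coq10a (0.971), which helps coenzyme Q to work in respiration, and Ghitm (0.968), a mitochondrial inner membrane protein. For Gm15441 they were Ndfip2 (0.897), Fbxo4 (0.893) and Esyt2 (0.89). For H19 they were Hdgfl3 (0.898), Scn7a (0.893) and Itm2a (0.89), and for Neat1 Pex11g (0.896), Ebp (0.855) and Asl (0.852). Among the members, the highest r were 0.78 for Meg3 with Malat1 and for Meg3 with H19, and the lowest was -0.82 for Lncbate10 with Meg3.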

How the data were processed

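Poly-A RNA of 12 BAT libraries (3 in each group) was sequenced single-end at 75 bases. The authors aligned reads with STAR 2.7.5a to mm10 and counted exons with HOMER 4.11.1, keeping 1 transcript a gene, and deposited TPM, which sum to 55.4% to 57.6% of the nominal total of 1000000 over the rows given. They also deposited log2-scale values a library for each temperature, used here only as an alternative, with their own fold changes and p-values, which were not used. The transcript kept for Neat1, Meg3 and H19 at RT, and for Neat1 and Meg3 at TN, differs between the TPM table and the log2-scale tables.

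The unit was TPM, so no count test was run. limma 3.58.1 (R 4.3.3, with trend) was fitted to log2(TPM + 1) of genes with a mean of at least 1 TPM, with Benjamini-Hochberg adjustment over all genes, on 6 libraries for genotype and on 12 libraries with 4 group means for temperature and for the difference of the genotype effects. Calls needed a log2 fold change above 0.32 or below -0.32 (the fold used by the authors) and an adjusted p under 0.05. The script was tested on simulated data. Members, lists and named genes (called list members with the largest changes, genes nearest by role, the 5 largest rises and falls of ncRNA rows, and 3 most alike genes) were chosen with earlier results of these data known, and the neighbour window of 100 kb after seeing the data. No p is given for Lncbate10 outside the RT comparison, or for H19. With 3 against 3 libraries an exact permutation test cannot go below 0.1 and was not used. Alternatives were a pseudocount of 0.1, no filter, upper-quartile scaling, median centring, a replicate block, another set of libraries in the fit, the authors' log2-scale values and leaving out each library. Sequences and gene models came from RefSeq and GENCODE M21. The strand of reads was not used in counting as far as the sources say. Values of some genes in the lists are not reported here.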

Additional observations from a re-analysis of the deposited data

Results flagged for a closer look

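The effect of the Txnip deletion on Txnip itself differed between temperatures, by -2.09 on the log2(TPM + 1) scale (TN minus RT, limma adjusted p = 0.00344), and it was flagged because that difference was tested directly. In WT libraries Txnip was higher at TN than at RT, and in Txnip-/- libraries it was lower. No member passed the same test, and the closest, Gm15441, had -0.97 with a limma adjusted p of 0.0776 (0.056 to 0.131 over its alternatives).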

How the results depend on the processing

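The numbers of genes called depended on the libraries. At RT, 178 genes were called, 44 with no filter on low values, 100 with the replicate block, 272 with all 12 libraries in the fit, and 2 to 159 when a library was left out (2 without the second RT WT library, 25 without the third RT Txnip-/- library). At TN, 1116 were called, 621 with no filter and 456 to 1005 with a library left out. Between temperatures, leaving out a library gave 4094 to 4754 genes in WT and 4303 to 5127 in Txnip-/-. For the difference of the genotype effects it gave 1 to 6, and the block gave 4. The share of called genes that rose was 51.1% at RT, 41.8% with upper-quartile scaling and 43.7% with median centring. At TN it was 74.9%, and 65.9% with median centring. Between temperatures it was 83.1% in WT and 78.9% in Txnip-/-, 70.4% and 68.8% with upper-quartile scaling, and 51.1% and 48.5% with median centring.

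Lncbate10 at RT (-1.20) passed with the replicate block (-1.20, adjusted p = 0.0217) and on the authors' log2-scale values (-0.82, adjusted p = 0.0354), and it was -1.40 to -0.95 with a library left out. At TN it was -2.0 on the authors' values. H19 at TN, given with no test, was 0.50 to 0.76 with a library left out, and Meg3 at TN was 0.30 on the authors' values. Neat1 at RT was -0.67 to -0.55 with a library left out. At TN the sign of its difference of 0.02 turned with median centring (-0.01) and without the first TN WT library (-0.10) or the second TN Txnip-/- library (-0.02), so that leaving out a library gave -0.10 to 0.10. Between temperatures Neat1 in WT was -0.20 to 0.00, and in Txnip-/- it was 0.31 with median centring. The cause of these changes was not tested. Under the alternatives run, the calls of Gm15441 at TN and in WT between temperatures, and those of Meg3 and Malat1 in Txnip-/- between temperatures, did not change. The block changed the call of no member other than Lncbate10 at RT.

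The deviations of same-numbered libraries correlated at 0.297, -0.022 and 0.21 at RT and 0.042, 0.023 and -0.036 at TN for replicates 1, 2 and 3. At neither temperature were all 3 over 0.1, so the numbers were not taken to pair the samples, though 2 of the 3 pairs at RT were. Depth limits H19 most, at a mean of 0.969 TPM, and TPM give no count to put an interval on.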
